A study of Mus musculus with 2 samples.

Results

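Arginase and arginine metabolism were examined through 7 genes, Arg1, Arg2, Ass1, Asl, Odc1, Gatm and Slc7a2, among the 27998 genes counted in single islet cells of ghrelin-knockout (GKO) and WT mice. The 7 genes were selected on these data with earlier results known, by exact gene symbol and by their UMI counts in barcodes grouped by leading hormone, so their levels and their ratios are given as a description, with no test. The study used single-cell RNA-Seq to compare islet cells of mice with and without ghrelin, a gastric and islet peptide hormone whose receptor, encoded by Ghsr, is enriched in δ cells. Islets came from 8-week-old C57BL/6N littermates on standard chow, either Wildtype (WT) or Ghrelin knockout (GKO, a germline deletion present in every cell of the animal). Digested pancreases of 4 mice were pooled per genotype. Cells of each pool were then sorted for live cells and made into 1 library. With 1 pool per genotype, genotype cannot be told apart from pool, sort or library, and every interval below covers counting error only.

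Arginine is taken up by cationic amino acid transporters and is drawn on by several competing enzymes. Arginases split it into urea and ornithine, ornithine decarboxylase turns ornithine into the polyamine putrescine, and glycine amidinotransferase uses arginine to start creatine synthesis. Arginine can be rebuilt from citrulline and aspartate by argininosuccinate synthase and argininosuccinate lyase, and in the islet it is a classical stimulus of both insulin and glucagon release.

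The WT library held 7792 barcodes and 158067110 UMIs, and the GKO library held 7289 barcodes and 103511757 UMIs. Barcodes with fewer than 500 genes or with over 10% of UMIs from mitochondrial genes were removed, which left 7100 in WT and 6346 in GKO, and 18 barcode sequences occurred in both libraries. A barcode was placed in the Ins, Gcg, Sst or Ppy class when that hormone led the 4 and made up at least 10% of its UMIs, and was called nonendocrine otherwise. The classes held 2265 WT and 872 GKO barcodes for Ins, 1048 and 1397 for Gcg, 1414 and 1003 for Sst, 717 and 669 for Ppy, and 1656 and 2405 for nonendocrine. Second hormones were frequent: 56.4% of WT and 50.1% of GKO barcodes of the Sst class had another hormone at 2% of UMIs or more. In this class it was mainly Ppy, with medians of 247 and 192 UMIs per barcode. The 95th percentile of Gcg was 12 and 14 UMIs. Sst-class values without a second hormone thus describe mainly barcodes low in Ppy. Ghrl itself, the deleted gene, had 43069 UMIs in WT and 276 in GKO nonendocrine barcodes. All of the GKO UMIs lay in 1 barcode, and 28.8% of the WT UMIs lay in 1 barcode. Levels are CPM, the UMIs of a gene scaled to a common total after summing over a class, and ratios are log2 of GKO over WT. The total includes hormone UMIs, whose share differs between classes, so levels of different classes are compared with that limit. In such sums, fewer cells of a type and less RNA per cell cannot be told apart.

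In GRCm38 (mm10), the gene models of GENCODE vM21 place Arg1 (ENSMUSG00000019987) at chr10:24915221-24927484 on the minus strand and Arg2 (ENSMUSG00000021125) at chr12:79130777-79156301 on the plus strand. Ass1 lies at chr2:31470207-31520672 (plus), Gatm at chr2:122594467-122611303 (minus), Asl at chr5:130011258-130029247 (minus), Odc1 at chr12:17544794-17551505 (plus) and Slc7a2 at chr8:40862396-40922308 (plus). All are protein-coding genes on different stretches of the genome. The arginases are paralogs, so the longest run of bases that their protein-coding transcripts share was read from the same annotation to show how far reads could be confused:
Arg1 and Arg2: gtgtacattggc
This run is 12 bases long and lies 827 bases before the end of the Arg1 transcript and 744 bases before the end of the Arg2 transcript. Arg2 overlaps the protein-coding gene Vti1b and the antisense gene Gm48780, and Slc7a2 overlaps the lincRNA Gm26584, each on the opposite strand, and Odc1 overlaps the snoRNA Gm22748 on the same strand. Whether the counting used strand is not given in the sources used here, so Arg2 and Slc7a2 counts carry that limit, and strand would not separate Odc1 from Gm22748.

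Arg1, the cytosolic arginase of the urea cycle, was concentrated in the Sst class, which held 65.2% of the gene's UMIs in kept WT barcodes and 58.3% in GKO barcodes. The WT library had 6057 Arg1 UMIs here, or 362 CPM (interval 353 to 372), and the GKO library had 6407 UMIs, or 583 CPM (interval 569 to 598). The GKO library was therefore higher by 0.69 on the log2 scale (interval 0.64 to 0.74), and the intervals of the levels did not overlap. The hormone that defines the class was at the same level in both libraries, with Sst at 185300 CPM in WT and 185500 CPM in GKO. Barcodes entered the class only when Sst led and reached the hormone limit, so these levels were partly set by that rule. Their likeness is therefore no separate check that the class held the same cells in both libraries. Ghsr, a δ cell gene in the mouse islet, stood at 25.6 and 31.4 CPM, a log2 ratio of 0.30 (interval 0.09 to 0.51). Among markers of other cell types in the Sst class, the 6 acinar genes summed to 428 CPM in WT and 255 CPM in GKO. The 7 endothelial genes summed to 112 and 58.6 CPM, and the 7 R-macrophage genes to 116 and 161 CPM. The 7 activated stellate genes summed to 33.0 and 74.3 CPM, and the 4 proliferating genes to 11.1 and 21.9 CPM. All of these genes were detected in both libraries. Their part in the Arg1 difference was not tested.

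The difference in the Sst class lay across the barcodes and not in a few of them. An Arg1 UMI was found in 93.2% of WT barcodes (interval 91.8 to 94.5) and in 97.8% of GKO barcodes (interval 96.7 to 98.6), with medians of 4 and 6 UMIs per barcode. Among R-macrophage-like cells, the reference here, none of 178 WT barcodes had an Arg1 UMI, which allows a share of up to 1.69%. In GKO, 3 of 423 barcodes had one. This type is among the lowest in Arg1, so shares above it do not measure free RNA in the hormone classes. Other nonendocrine types varied in WT and GKO, at 0.98 and 0.86 CPM in quiescent stellate-like and 13.5 and 11.3 CPM in activated stellate-like cells. T cell-like cells were at 38.35 and 16.8 CPM, from 8 and 4 UMIs. Median depth was 11065 and 10148 UMIs in the Sst class against 10082 and 8794 in the R-macrophage-like cells. When each barcode was thinned to 5000 UMIs, leaving out 17 WT and 11 GKO barcodes that were shallower, the share with Arg1 was 78.1% in WT and 90.8% in GKO. At that depth, 7.30% of WT and 23.3% of GKO barcodes still held 5 or more Arg1 UMIs, whereas 21.9% and 9.17% held none.

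**Figure D1:**
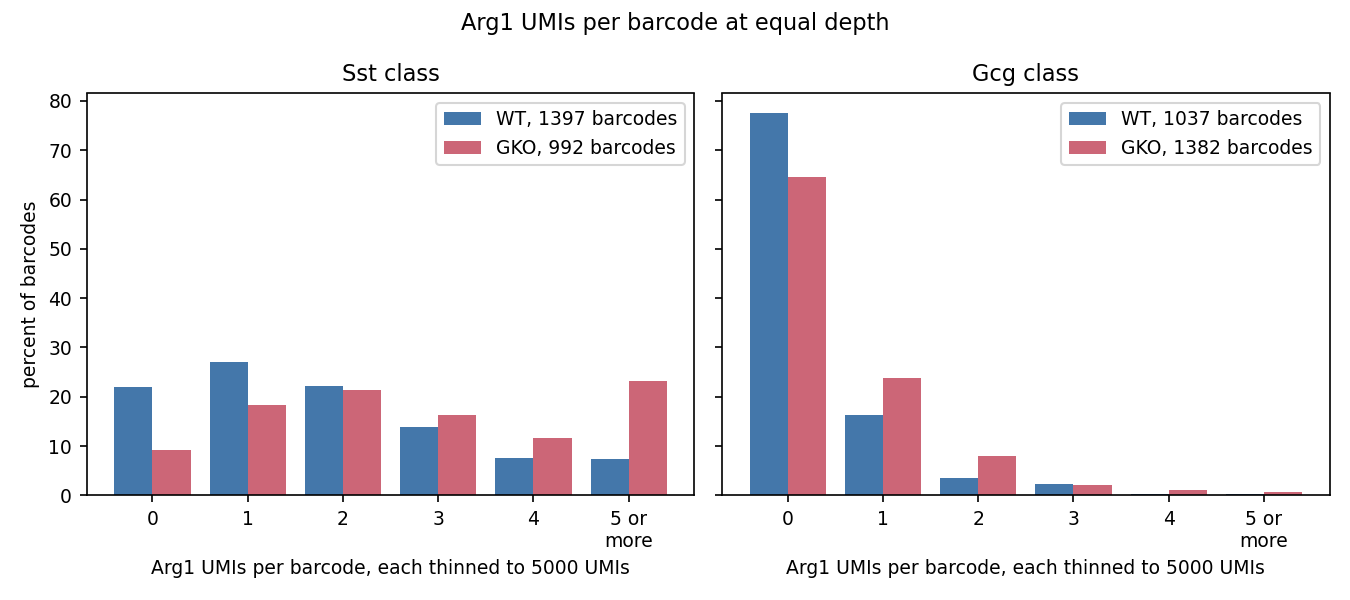
Percent of barcodes (vertical axis) by the number of Arg1 UMIs left after thinning each barcode to 5000 UMIs (horizontal axis), in the Sst class (left) and the Gcg class (right), with WT in blue and GKO in red. In both classes the GKO bars are lower at 0 UMIs and higher at 5 or more, as in the Sst class, where 21.9% of WT and 9.17% of GKO barcodes held none.

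Arg1 in the Gcg class was the second highest of the hormone classes, at 66.0 CPM in WT (957 UMIs) and 119 CPM in GKO (2224 UMIs). The GKO level was higher by 0.85 on the log2 scale (interval 0.74 to 0.96). An Arg1 UMI was present in 42.3% of WT and 58.8% of GKO barcodes of this class, and in 22.4% and 35.5% after thinning to 5000 UMIs. These shares were above those of the R-macrophage-like cells, a type low in Arg1, at median depths of 12502.5 and 12174 UMIs in the Gcg class. Plasma cell markers, of which 2 were counted, summed to 2.28 CPM in WT and 110.8 CPM in GKO in this class, and their part was not tested.

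Because Sst-class barcodes carried so much Arg1, barcodes of the other classes were divided by whether Sst made up at least 2% of their UMIs. In the Gcg class, the barcodes under 2% Sst, 962 in WT and 1296 in GKO, still held 66.4% and 65.7% of the class's Arg1, at 50.5 CPM in WT and 89.2 CPM in GKO. Their log2 ratio was 0.82 (interval 0.69 to 0.96), and 37.5% and 55.6% of them had an Arg1 UMI. The 86 WT and 101 GKO barcodes with more Sst stood at 168 and 323 CPM, a log2 ratio of 0.94 (interval 0.75 to 1.14). Leaving out every Gcg barcode with any second hormone at 2% gave 53.3 and 89.95 CPM (log2 ratio 0.75, interval 0.61 to 0.90). The Gcg-class difference was thus present in both strata, the lower of which still held Sst at 368 CPM in WT and 252 CPM in GKO.

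In the Ins class, of β cell barcodes, Arg1 was at 15.2 CPM in WT and 27.3 CPM in GKO, a log2 ratio of 0.84 (interval 0.72 to 0.96). Here the Arg1 UMIs sat mostly in few barcodes: the 10.2% of WT and 11.8% of GKO barcodes with at least 2% Sst held 72.7% and 77.4% of them. The remaining Ins barcodes had 4.69 CPM in WT and 7.10 CPM in GKO, with a log2 ratio of 0.60 (interval 0.34 to 0.85). Without any second hormone at 2%, Ins barcodes stood at 3.31 and 4.66 CPM, a log2 ratio of 0.49 (interval 0.16 to 0.81), which is below the 0.5 used here as the size of a called difference. These low levels rest on 234 WT and 120 GKO UMIs.

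The Ppy class gave the same order of libraries at a low level, 21.1 CPM in WT and 36.6 CPM in GKO, a log2 ratio of 0.79 (interval 0.60 to 0.98). Its barcodes under 2% Sst were at 8.77 CPM in WT and 12.4 CPM in GKO, a log2 ratio of 0.50 (interval 0.17 to 0.84), and its barcodes with more Sst were at 139.5 and 215.7 CPM. How far doublets, cells with several hormones or free RNA contributed to Arg1 in barcodes of mixed hormones was not tested. Per 1000 Sst UMIs, the Sst class held 1.96 Arg1 UMIs in WT and 3.15 in GKO, and the Gcg class held 6.96 and 13.3. If every Sst UMI in a class brought Arg1 at the ratio of the Sst class, it would carry 28.1% of the Arg1 of Gcg barcodes in WT and 23.6% in GKO, but 74.5% and 74.4% of that of Ins barcodes.

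**Figure D2:**
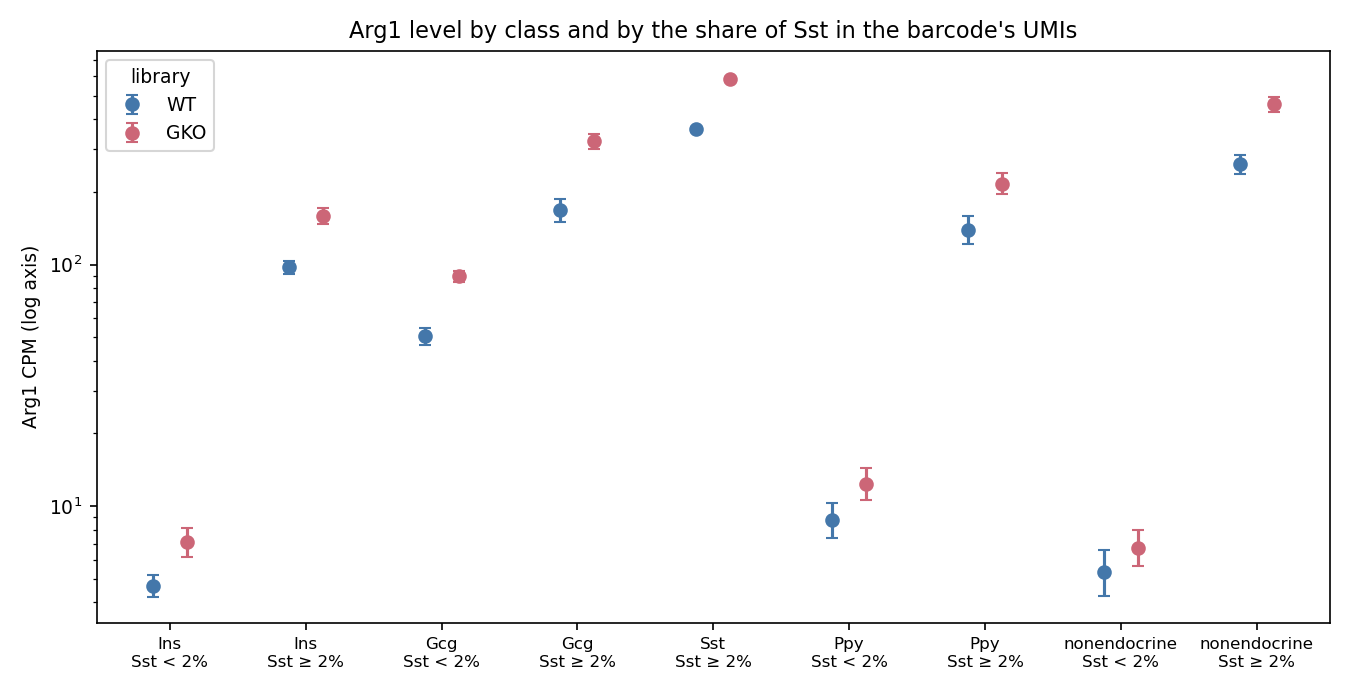
Arg1 level (CPM, log axis) for barcodes of each class under and at or above 2% Sst among their UMIs, WT in blue and GKO in red, with 95% counting intervals. The Gcg barcodes under 2% Sst lie at 50.5 and 89.2 CPM, well above the Ins, Ppy and nonendocrine barcodes under 2% Sst, and GKO lies above WT in each stratum shown, although the intervals overlap for nonendocrine barcodes under 2% Sst.

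Among nonendocrine barcodes, Arg1 was at 31.8 CPM in WT and 41.0 CPM in GKO, a log2 ratio of 0.37 (interval 0.22 to 0.52). Most of it belonged to clusters led by endocrine genes. Cluster 6, which was left unnamed and whose leading genes were the granins Chgb, Scg2 and Chga with Rbp4, held 76.0% of these UMIs in WT and 77.3% in GKO, at 219 CPM and 388 CPM. The alpha-like cluster, whose barcodes were under the 10% hormone limit, held 9.84% and 9.26%, at 84.8 and 142 CPM. The rest of the nonendocrine barcodes stood at 5.26 CPM in WT and 6.16 CPM in GKO. Macrophages are known elsewhere for inducible Arg1, and R-macrophage-like cells had 0 WT and 3 GKO UMIs. The unnamed cluster 10, led by Ccr7, Ccl5 and Epsti1, had 0 WT and 16 GKO UMIs, of which 1 barcode held 62.5%. Of the listed macrophage markers, only Cd86 and Ccr2 were enriched enough in it to count, fewer than the 3 needed for a name. Other macrophage genes may be present below that limit. With 30 components, a cluster of 30 WT and 78 GKO barcodes that shared Cxcl9, Fabp5 and Dnase1l3 among its leading genes was named R-macrophage-like. With the hormone limit at 5% in place of 10%, which moves such endocrine barcodes into their hormone classes, the nonendocrine ratio turned to -0.15.

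Arg2, the mitochondrial arginase, was close to absent from islet endocrine barcodes. Its UMIs numbered 8 in WT and 1 in GKO over the Ins class, 1 and 3 over Gcg, 11 and 0 over Sst, and 1 and 0 over Ppy. For the GKO Sst class, 0 of 1003 barcodes allows a share of up to 0.299%. In the Sst class, the WT level was 0.658 CPM and the GKO level is bounded by the floor of 3 UMIs at 0.273 CPM. The interval of the Sst-class ratio had an upper bound of -0.72, and of -0.37 without the richest barcode of each library. The other hormone classes had too few UMIs for a ratio.

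In nonendocrine barcodes Arg2 had 90 UMIs in WT and 40 in GKO, 5.11 and 1.83 CPM, a log2 ratio of -1.48 (interval -2.06 to -0.93). Much of the WT count came from 2 barcodes of the ductal-like cluster 17, with 31 and 16 Arg2 UMIs. Their leading genes, looked up after these counts were seen, included Fabp1, Fabp2, Rbp2, Sis, Lgals4 and Reg3g, which are genes of the intestinal epithelium. Leaving out the barcode richest in Arg2 in each library brought the ratio to -0.98 (interval -1.62 to -0.37), and weighting each barcode equally brought it to -0.15. The S100a9+-like cells, of neutrophil type by S100a8, S100a9, Retnlg and Csf3r, had an Arg2 UMI in 29.5% of 44 GKO barcodes at a median depth of 1610.5 UMIs, against 0.709% of R-macrophage-like barcodes at 8794 UMIs. Only 4 such barcodes were in the WT library, so no ratio is given for them.

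Ass1, which joins citrulline and aspartate into argininosuccinate, was low in endocrine barcodes and was highest of the hormone classes in Sst. There it stood at 4.13 CPM in WT (69 UMIs) and 7.01 CPM in GKO (77 UMIs), a log2 ratio of 0.76 (interval 0.28 to 1.25). Shares with a UMI were 4.67% and 6.98%, and their intervals, 3.63 to 5.90 and 5.48 to 8.74, overlapped. The Ins class had 1.02 and 0.731 CPM, while Gcg and Ppy had 10 to 20 UMIs per library and were not read further.

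In nonendocrine barcodes Ass1 was at 9.88 CPM in WT and 19.0 CPM in GKO, a log2 ratio of 0.94 (interval 0.68 to 1.20). One GKO barcode held 133 of the 414 GKO UMIs, and without the richest barcode of each library the levels were 9.67 and 12.9 CPM and the ratio was 0.42 (interval 0.14 to 0.70). That barcode and another GKO barcode with 103 Ass1 UMIs, which the mitochondrial limit had removed, were led by Vip, Npy, Stmn2, Tubb3, Prph and the choline transporter Slc5a7, genes of peripheral neurons. They also held 19 and 18 UMIs of Asl. These genes were looked up after the Ass1 counts were seen. Endothelial-like clusters 1 and 2 held Ass1 in both libraries, with 19.7 and 27.7 CPM in cluster 1 and 11.7 and 17.5 CPM in cluster 2, and the intervals of both ratios included 0. The unnamed cluster 10, led by Ccr7, Ccl5 and Ccl22, had 28.0 CPM in WT and 54.8 CPM in GKO, a log2 ratio of 0.97 (interval 0.17 to 1.84).

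Asl, which releases arginine from argininosuccinate, was found in every class between 10.1 and 25.2 CPM. The levels in WT and GKO were 10.1 and 11.8 CPM in Ins, 18.6 and 17.0 CPM in Gcg, 16.9 and 21.0 CPM in Sst, 12.3 and 13.8 CPM in Ppy, and 21.6 and 25.2 CPM in nonendocrine barcodes. The log2 ratios ran from -0.12 in Gcg to 0.31 in Sst, all under 0.5. In the Sst class the ratio was 0.06 (interval -0.33 to 0.45) once barcodes with a second hormone were left out.

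**Figure D3:**
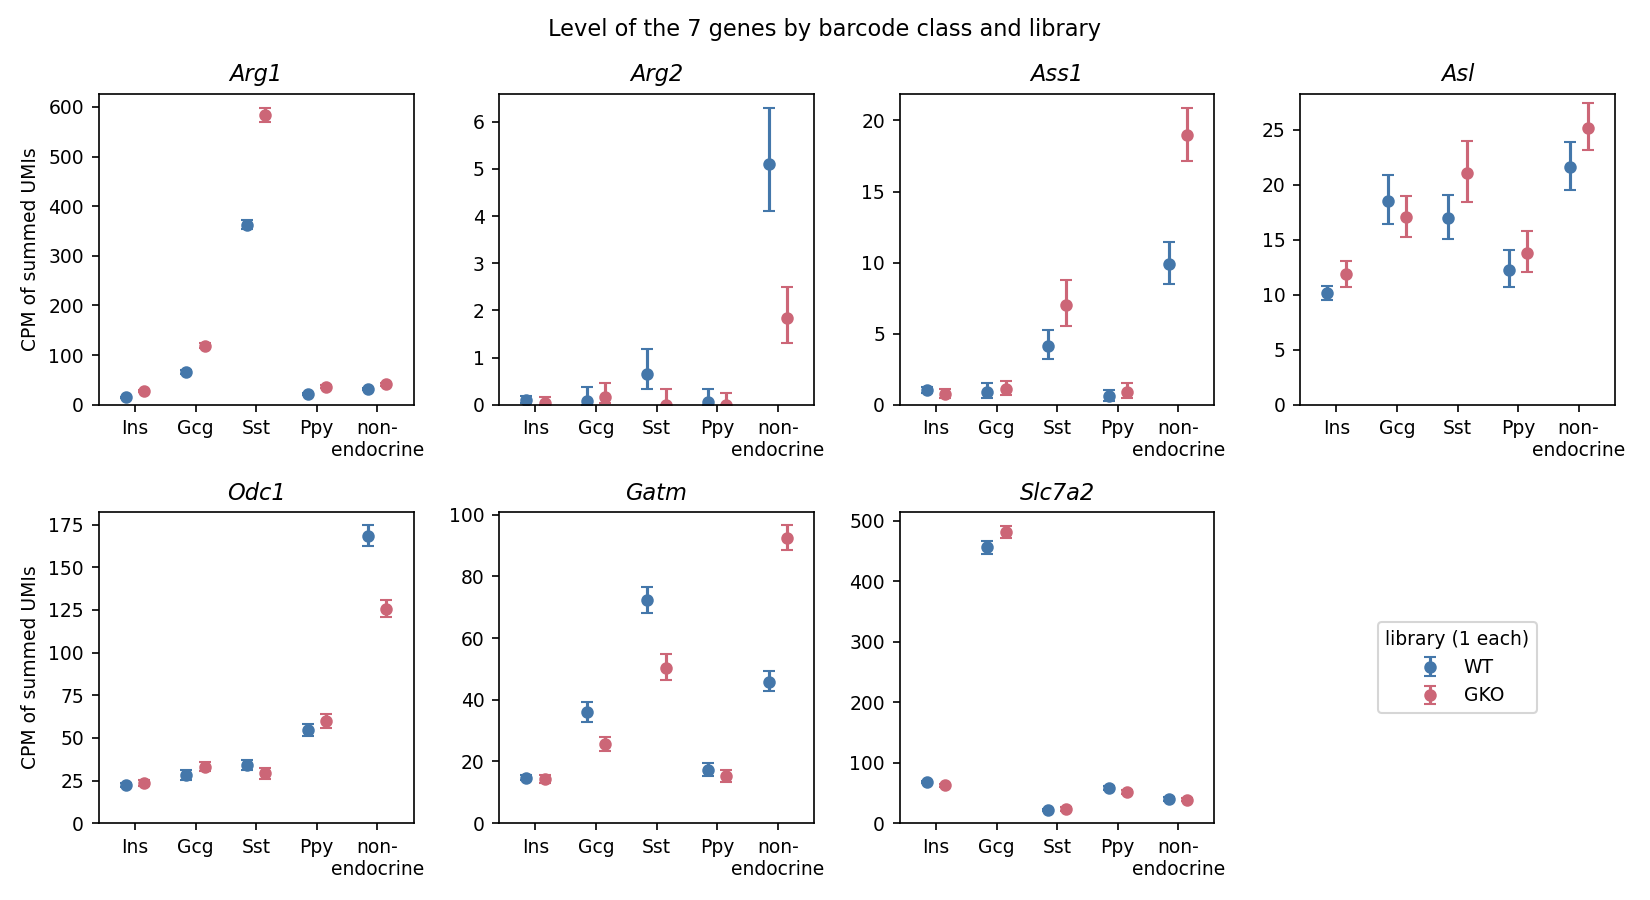
Level (CPM of summed UMIs, each panel with its own axis from 0) of the 7 genes in the 5 barcode classes, WT in blue and GKO in red, with 95% counting intervals. Arg1 is highest in Sst (362 and 583 CPM), Slc7a2 in Gcg (456 and 481 CPM), and Odc1 in nonendocrine barcodes (168.5 and 126 CPM).

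Odc1, the first enzyme of polyamine synthesis, was higher in nonendocrine than in endocrine barcodes, at 168.5 CPM in WT (2966 UMIs) and 126 CPM in GKO (2746 UMIs), a log2 ratio of -0.42 (interval -0.50 to -0.35). Among hormone classes it was highest in Ppy, with 54.3 and 59.8 CPM, and it was at 34.2 and 29.1 CPM in Sst, 28.1 and 33.2 CPM in Gcg, and 22.3 and 23.6 CPM in Ins. Ratios in the hormone classes ran from -0.23 in Sst to 0.24 in Gcg. The order of Sst and Gcg differed between libraries, and in GKO the interval of their ratio included 1. In Sst barcodes without a second hormone, Odc1 was at 35.4 and 25.3 CPM (log2 ratio -0.48, interval -0.79 to -0.18).

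The lower nonendocrine Odc1 level in GKO was found in several cell types. Activated stellate-like cells, collagen-producing mesenchymal cells, were at 166 CPM in WT and 77.0 CPM in GKO, a log2 ratio of -1.11 (interval -1.30 to -0.91). Their cluster 9, 42 of 268 WT barcodes and 129 of 592 GKO barcodes, held 267 of 468 WT UMIs and was at 371 and 110 CPM (-1.75), whereas clusters 3 and 7 had ratios of -0.60 and -0.63. Cluster 9 was led by Cxcl13, Enpp2, Fn1 and Wt1, and 1 WT barcode in it held 68 Odc1 UMIs. Without the richest barcode of each library, the ratio was -0.96 in activated stellate-like cells (interval -1.16 to -0.75) and -1.54 in cluster 9. Resident (R-)macrophage-like cells were at 245 and 160 CPM (-0.62, interval -0.80 to -0.44), and T cell-like cells at 858 and 450 CPM (-0.93, interval -1.29 to -0.58) from only 20 and 29 barcodes. Ductal-like cells (161 and 143 CPM) and quiescent stellate-like cells (69.5 and 58.4 CPM) differed by less, with intervals that included 0. Most WT ductal-like barcodes lay in cluster 17 and most GKO ones in cluster 13. Cluster 14, unnamed and led by Jchain, Mzb1 and Cd79a, held 17.0% of the WT nonendocrine Odc1 UMIs and was not lower in GKO, at 427 and 491 CPM (0.20, interval 0.00 to 0.40). Its makeup differed between libraries, with median depths of 18226 UMIs in WT and 10940 in GKO. Clustered at resolution 1.0, B cell-like barcodes numbered 21 in WT and 44 in GKO. An unnamed cluster with both B cell and proliferating markers then held 31 and 14. The alpha-like cluster had 23.1 and 61.5 CPM, from 15 and 36 UMIs.

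Gatm, which commits arginine to creatine synthesis, was past a log2 ratio of 0.5 in opposite directions in the Sst class and in nonendocrine barcodes. Both fell short of it under other settings, the Sst ratio at -0.47 after thinning and -0.495 with the hormone limit at 5%, and the nonendocrine ratio at 0.46 with the limit at 20%. In the Sst class it was at 72.3 CPM in WT (1208 UMIs) and 50.5 CPM in GKO (554 UMIs), a log2 ratio of -0.52 (interval -0.67 to -0.37), and 50.2% of WT but 38.5% of GKO barcodes had a UMI. Thinned to 5000 UMIs, these shares were 28.6% and 21.4%, with intervals of 26.3 to 31.1 and 18.9 to 24.1. The Gcg class was close behind, at 35.9 and 25.6 CPM (-0.49, interval -0.67 to -0.31). In Sst barcodes without a second hormone the ratio was -0.68 (interval -0.89 to -0.46). Ins, at 14.7 and 14.2 CPM, and Ppy, at 17.3 and 15.2 CPM, differed by less than their counting intervals.

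Nonendocrine barcodes had 45.9 CPM of Gatm in WT and 92.6 CPM in GKO, a log2 ratio of 1.01 (interval 0.89 to 1.13). R-macrophage-like cells accounted for the largest number of UMIs, 370 and 1114, at 199 and 277 CPM (0.48, interval 0.31 to 0.65), and their barcodes numbered 178 in WT and 423 in GKO. Their cluster 5 had a ratio of 0.67 (interval 0.48 to 0.86) and their cluster 8, 38 of the WT and 173 of the GKO barcodes, 0.17 (interval -0.24 to 0.60). Activated stellate-like cells were at 17.4 and 87.7 CPM, but 45 of 49 WT and 450 of 458 GKO UMIs were in their cluster 9, led by Cxcl13, Enpp2, Fn1 and Wt1. There, 19.0% of 42 WT and 26.4% of 129 GKO barcodes had a Gatm UMI, at 62.5 and 283 CPM. A single WT barcode held 44.4% of the WT count, and without the richest barcode of each library cluster 9 stood at 36.3 and 259 CPM. Gpr37l1+ stellate-like cells had the highest levels, 407 and 624 CPM, from 15 and 12 barcodes, and the interval of their ratio included 0. Endothelial-like clusters 1 and 2 and quiescent stellate-like cells had at most 8 Gatm UMIs per library each. Cell type numbers thus differed between the libraries along with the levels, and their part in the nonendocrine ratio was not tested.

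**Figure D4:**
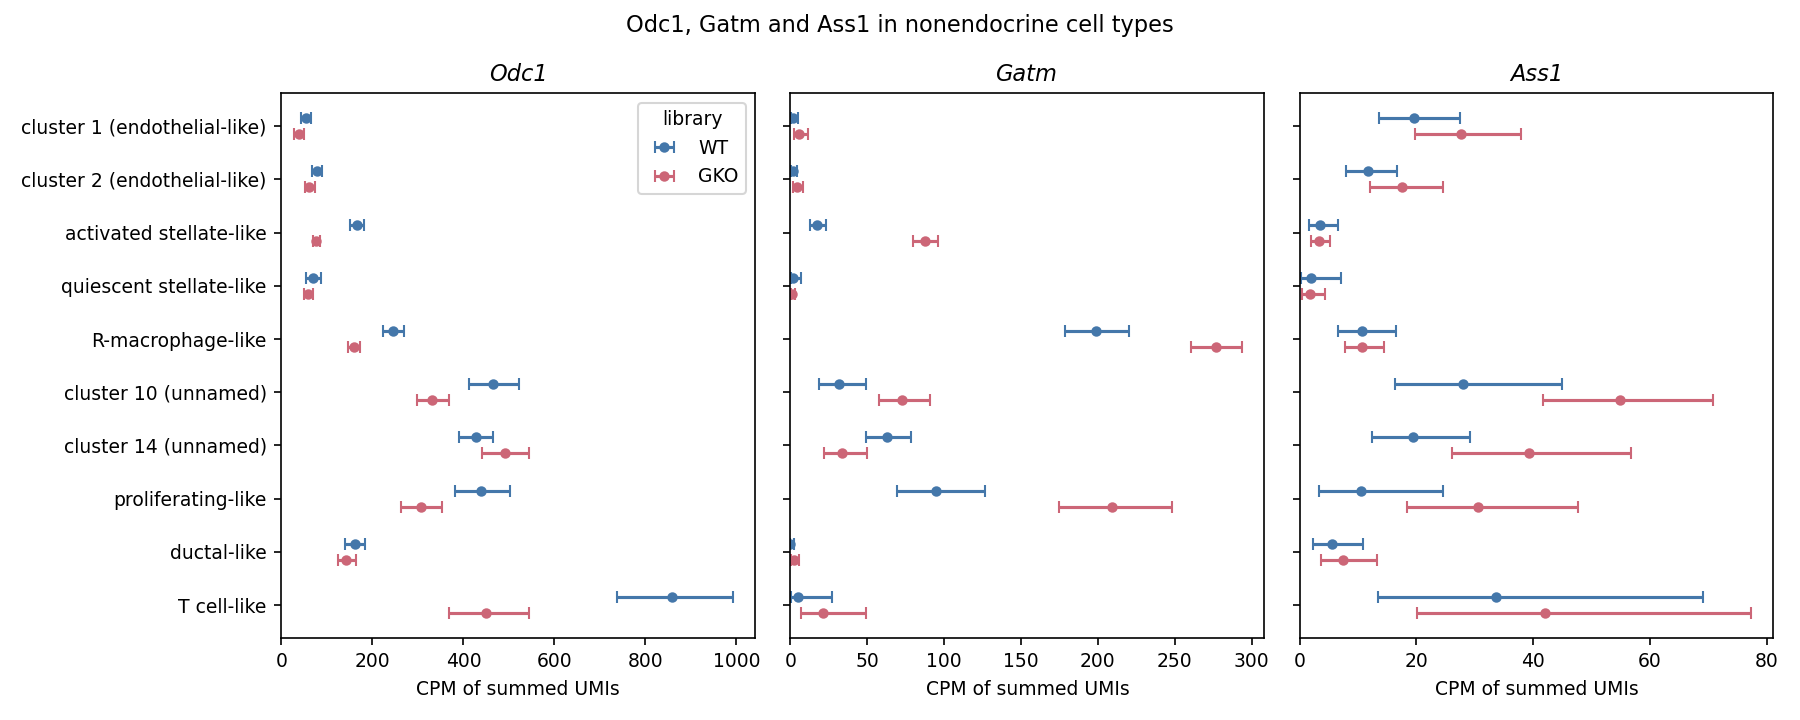
Levels (CPM of summed UMIs, horizontal axis, each panel from 0) of Odc1, Gatm and Ass1 in nonendocrine cell types and clusters, WT in blue and GKO in red, with 95% counting intervals. Odc1 lies lower in GKO in activated stellate-like (166 and 77.0 CPM) and R-macrophage-like cells (245 and 160 CPM), and Gatm lies higher in GKO in both. The activated stellate-like Gatm UMIs were mostly those of cluster 9, 45 of 49 in WT and 450 of 458 in GKO. Of the R-macrophage-like clusters, cluster 5 had a Gatm ratio of 0.67 and cluster 8 one of 0.17, with an interval that included 0.

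Slc7a2, the cationic amino acid transporter CAT-2, was highest in the Gcg class. This class held 44.8% of the gene's UMIs in kept WT barcodes and 69.5% in GKO barcodes. The Ins class held 41.2% and 15.85%. In the Gcg class Slc7a2 stood at 456 CPM in WT (6615 UMIs) and 481 CPM in GKO (9009 UMIs), with a UMI in 97.5% and 97.8% of barcodes. Within WT the Gcg level was 6.68-fold above the Ins class (interval 6.45 to 6.92) and within GKO 7.67-fold (interval 7.31 to 8.05). These folds are on totals that include hormone UMIs, and folds without them were not computed. Ins barcodes without a second hormone at 2% had an Slc7a2 UMI in 84.6% of WT and 79.6% of GKO. The reference shares, here in endothelial-like cluster 1 and not in the R-macrophage-like cells used for Arg1, were 1.40% and 1.75%. This cluster is low in Slc7a2, so shares above it do not measure free RNA in the Gcg class. Median depths were 5335 and 5426 UMIs there against 12502.5 and 12174 in the Gcg class. Slc7a2 was at 2.31 and 2.84 CPM in that cluster, 9.13 and 6.21 CPM in R-macrophage-like cells, and 44.0 and 38.7 CPM in quiescent stellate-like cells. The alpha-like cluster, which the hormone limit had placed outside the Gcg class, had 510 and 504 CPM.

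Between libraries, no class reached a ratio of 0.5 for Slc7a2. The log2 ratio was 0.08 in Gcg (interval 0.03 to 0.12), -0.12 in Ins (68.3 and 62.7 CPM), -0.17 in Ppy (58.3 and 51.7 CPM), 0.09 in Sst (21.7 and 23.1 CPM) and -0.04 in nonendocrine barcodes (39.7 and 38.7 CPM). Within the nonendocrine barcodes, the unnamed cluster 6 had 106 and 165 CPM (0.64, interval 0.38 to 0.90). Clustered at resolution 1.0, leading genes of cluster 6 were shared by a delta-like cluster and an alpha-like cluster led by Chga and Chgb. The delta-like cluster held 72 WT and 62 GKO barcodes, and this alpha-like cluster 59 and 60. The part of this mix in the cluster 6 ratio was not tested. In both libraries the order of classes for Slc7a2 was Gcg, Ins, Ppy, nonendocrine and Sst, and no interval between neighbours included 1. For Arg1 the order was Sst, Gcg, nonendocrine, Ppy and Ins in both libraries, again with every neighbour apart. Both orders are on totals that include hormone UMIs. In WT, Ins2 stood at 427500 CPM in Ins and 4363 CPM in nonendocrine barcodes, and Ppy at 340200 CPM in Ppy. Orders without hormone UMIs were not computed, and the lower places for Arg1 could differ there. The Arg1 order also rests on Sst-rich barcodes. Under 2% Sst, Ppy (8.77 and 12.4 CPM) lay above nonendocrine barcodes (5.32 and 6.74 CPM), as did Ins in GKO (7.10 CPM).

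A log2 ratio of at least 0.5 in either direction, in genes with at least 50 UMIs over both libraries of a class, was taken as the size of a called difference. Because the 7 genes were chosen on these same ratios, the counts below are set beside those of all genes and nothing is read from them. In the Sst class 6 of the 7 genes had enough UMIs, Arg1 and Ass1 were past 0.5 higher in GKO and Gatm lower, where 3.55% of all 11881 genes were past it higher and 3.59% lower. In the Gcg class, with 5 genes measured, Arg1 alone was higher, against 4.25% of 11922 genes higher and 3.7% lower. In the Ins class Arg1 alone of 6 was higher, against 5.33% of 13047 genes higher and 3.81% lower. The Ppy class had Arg1 alone of 5, against 4.47% of 11496 genes higher and 2.55% lower. In nonendocrine barcodes, where all 7 were measured, Ass1 and Gatm were higher and Arg2 lower, against 10.8% of 13981 genes higher and 8.45% lower. By size, Arg1 ranked 147 of 11922 from the highest in Gcg, 198 of 11881 in Sst, 187 of 11496 in Ppy and 255 of 13047 in Ins.

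**Figure D5:**
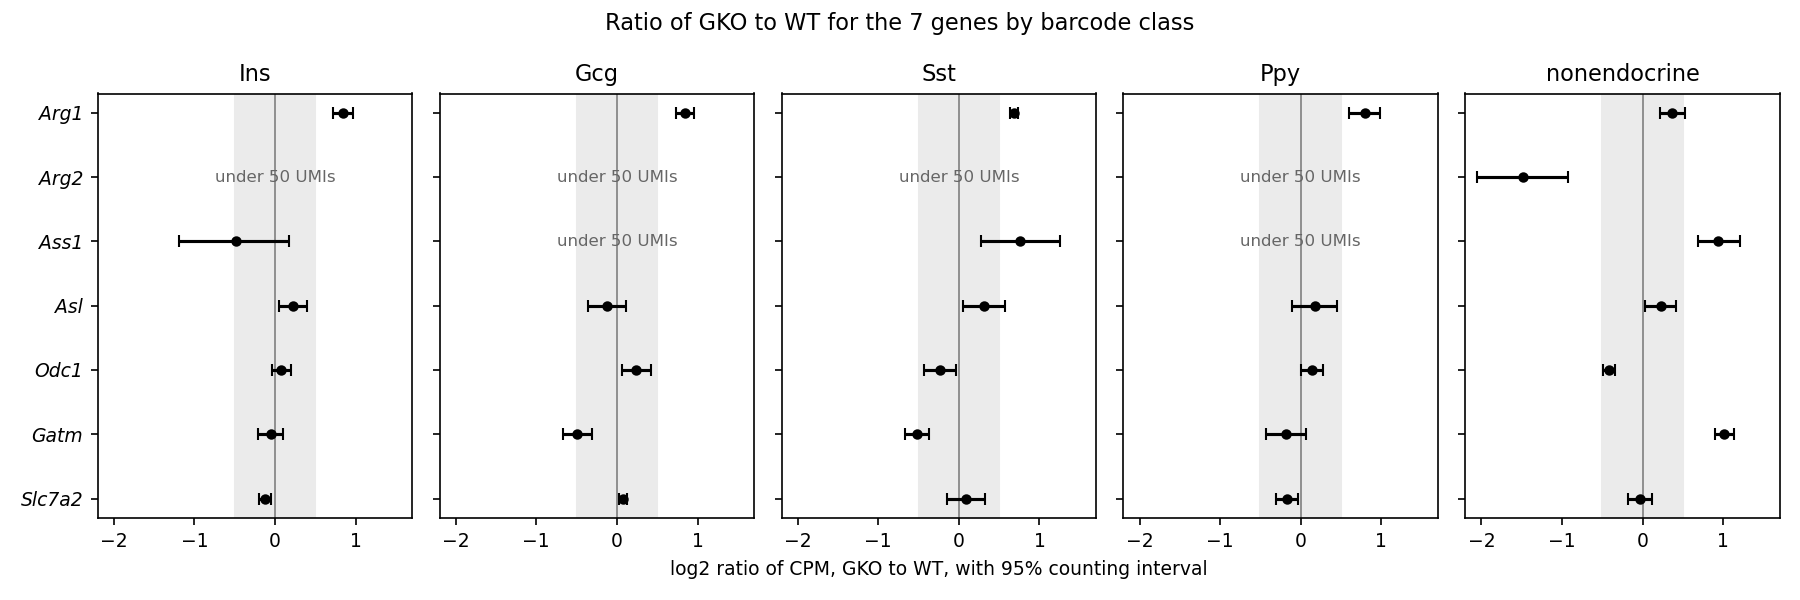
Log2 ratio of GKO to WT (horizontal axis, with 95% counting intervals) for the 7 genes in each barcode class, with the band within 0.5 of 0 in grey and genes under 50 UMIs marked as such. Arg1 lies to the right of the band in the 4 hormone classes, at 0.69 in Sst to 0.85 in Gcg, and Gatm lies at -0.52 in Sst and 1.01 in nonendocrine barcodes.

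The rest of the pathway was described with a list of 49 genes, drawn up with earlier results of these data known and grouped by role. The counts past 0.5 stand beside the shares of all genes and are not read as particular to the pathway. In the Sst class 37 were measured, 1 was higher and 0 lower, beside 3.55% and 3.59% of all genes, and the list's median ratio was 0.04 beside 0.03 for all genes. The gene was Slc25a15, the mitochondrial ornithine carrier, at 2.27 and 3.28 CPM (0.53), with an interval of -0.17 to 1.22 that included 0. In the Gcg class 2 of 38 were higher and 0 lower, beside 4.25% and 3.7% of all genes, with a median of 0.07 beside 0.05. These were Eif5a2, which carries the hypusine made from spermidine, at 3.59 and 5.34 CPM (0.57, interval 0.08 to 1.09), and Nos3, the endothelial nitric oxide synthase, at 3.24 and 4.59 CPM (0.50, interval -0.03 to 1.05).

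Creatine kinase B, Ckb, was the pathway gene with the largest ratio in the Ins class, at 42.8 CPM in WT and 73.6 CPM in GKO (0.78, interval 0.71 to 0.86). It was the only one of 38 past 0.5 there, beside 5.33% of all genes higher and 3.81% lower, and the median was 0.08 beside 0.08 for all genes. In the Sst class Ckb was at 27.9 and 27.2 CPM, a log2 ratio of -0.03. In the Ppy class 1 of 38 was higher, beside 4.47% of all genes, Ddah2, which breaks down methylarginines, at 6.66 and 9.45 CPM (0.50, interval 0.14 to 0.87).

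In nonendocrine barcodes 2 of 41 pathway genes were higher and 4 lower, where 10.8% of all genes were higher and 8.45% lower, and the median was -0.10 beside 0.00. Ckb was at 167.5 and 264 CPM (0.66) and the polyamine oxidase Paox at 9.15 and 13.6 CPM (0.57). The lower genes were Ckmt1, the mitochondrial creatine kinase, at 21.8 and 12.3 CPM (-0.83), Asns, asparagine synthetase, at 20.1 and 12.6 CPM (-0.67), Nos3 at 18.8 and 11.9 CPM (-0.66) and Ddah1 at 17.4 and 11.4 CPM (-0.61). Of the 14 polyamine genes, 13 were measured in every class, and apart from Paox none reached 0.5 in any class. Of the 11 urea cycle and ornithine genes, no more than 6 had 50 UMIs in any class.

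The genes whose pattern was most like each member were found by the Pearson correlation of log2(CPM + 1) over 22 points, 11 cell types with at least 50 barcodes per library in 2 libraries, among 10587 genes that reached 20 CPM. The points share libraries and, for classes, a hormone, so r is given as a description. Arg1 was most like Rbp4 (r = 0.974), a δ cell marker, and Cd164l2 (0.974), followed by AW551984, Phyhipl and Arsb. Slc7a2 was most like Edn3 (0.92), then Aard, Vipr1, Wnk3 and Nap1l5. Gatm was nearest to Fam46c (0.925), with Fam105a, Bhlhe41, Rtn1 and the macrophage complement gene C1qa (0.817). Odc1 was nearest to Ifrd1 (0.947), with Nfkbiz, Pim1, Sqstm1 and Nfkbie, and Asl to Klc4 (0.907), with Vamp8, Fbrsl1, Krr1 and Plagl2. Ass1 (Cep250, Arhgap18, Parp12, Psmb8 and Rin3) and Arg2 (Ctse, Slc39a4, Stra6l, Ltb and Kctd14) rest on few UMIs in most of these types.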

How the data were processed

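The authors deposited raw UMI counts per gene and barcode from Chromium 3′ v3.1 libraries processed with Cell Ranger 5.0.1. The submitters' processing notes name mm10. The study's later CellBender and DoubletFinder steps were not repeated here. The members and the pathway list were chosen with earlier results of these data known. UMIs were summed by class and library, and ratios carry exact conditional binomial intervals, shares Clopper-Pearson intervals, both at 95% and for counting error only. The ratio intervals and the thinning were tested on simulated independent counts. Those counts did not gather in single barcodes as some UMIs did here, and the intervals do not cover that. No test between genotypes was made, since each had 1 library. Nonendocrine barcodes were clustered (Leiden, resolution 0.6, 20 components, 2000 variable genes without hormones, members and pathway genes) and named "-like" from at least 3 detected markers. Doublets were not called, and barcodes with a second hormone were left out as an alternative. In the Sst class this left out mainly barcodes with Ppy, so it does not stand in for calling doublets there. Named genes were the 7 members, pathway genes past a log2 ratio of 0.5 (at most 8 per class), and the 5 genes most like each member. Of 27998 gene IDs, 27645 were in GENCODE vM21. Python 3.11.15, scipy 1.17.1 and edgeR 4.0.16 (TMM factors only, on the counts) were used. Alternatives varied filters, hormone limits, scaling, weighting, depth and clustering.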

Additional observations from a re-analysis of the deposited data

Results flagged for a closer look

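Gatm was past 0.5 in opposite directions in 2 classes, with a log2 ratio of GKO to WT of -0.52 in the Sst class and 1.01 in nonendocrine barcodes. The difference between these classes was not tested. Nonendocrine barcodes mix cell types whose numbers differed between libraries, such as 178 WT and 423 GKO R-macrophage-like barcodes. Within types, the Gatm ratio was 0.48 in R-macrophage-like and 2.34 in activated stellate-like cells. Of the activated stellate-like Gatm UMIs, 45 of 49 in WT and 450 of 458 in GKO were in cluster 9. The R-macrophage-like cluster 8 had a ratio of 0.17, with an interval that included 0. The Sst ratio was -0.47 after thinning to 5000 UMIs and -0.495 with the hormone limit at 5%, and the nonendocrine ratio was 0.46 with the limit at 20%. The barcodes removed by the filters, 692 in WT and 943 in GKO, had GKO levels above WT by a log2 ratio of more than 0.5 for 3 genes. Arg1 was at 19.1 CPM in WT and 53.5 CPM in GKO there (log2 ratio 1.49), with an Arg1 UMI in 5.06% and 6.04% of barcodes. Ass1 was at 2.04 and 32.9 CPM (4.01), of which 1 GKO barcode held 87.3%, and 4.26 CPM was left without it. Asl was at 11.6 and 19.5 CPM (0.75), of which the richest GKO barcode held 25.7%. Slc7a2, Odc1 and Gatm were higher in GKO by less (0.36, 0.27 and 0.06), and Arg2 was lower, at 15.7 and 3.62 CPM (-2.11, interval -3.12 to -1.20).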

How the results depend on the processing

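Of 393 recomputed log2 ratios of the 7 genes, 356 stayed within the counting interval of the value reported, 37 moved outside it, and 0 of the called ratios changed sign. The 356 include Arg2 in Ins and Gcg and Ass1 in Gcg and Ppy, where few UMIs made intervals wide enough to hold every alternative. Arg2 in Gcg, from 1 and 3 UMIs, had an interval of -2.42 to 6.93. For such ratios, staying within the interval does not show stability. The Arg1 ratio in the Sst class ranged from 0.58 to 0.71 over 12 alternatives, with 0.58 where the leading hormone had to reach 20% and 0.61 without barcodes holding a second hormone at 2%. In the Gcg class it ranged from 0.75 to 0.93 over 14. Calls were lost for Arg1 in Ins barcodes without a second hormone (0.49), Gatm in the Sst class after thinning (-0.47) and with the hormone limit at 5% (-0.495), Gatm in nonendocrine barcodes with the hormone limit at 20% (0.46), Ass1 in nonendocrine barcodes without the richest barcode (0.42) or with barcodes weighted equally (0.44), and Arg2 there with equal weights (-0.15). Gatm in the Gcg class was past 0.5 under 7 of 12 alternatives. Arg1 in nonendocrine barcodes, not past 0.5, turned to -0.15 with the limit at 5%. Over the 5 classes there were 7 calls of pathway genes higher and 4 lower, a gene counting once in each class, so that Ckb counts in 2 classes and Nos3 in both directions. With at least 200 UMIs these were 4 and 4, with at least 20 UMIs 9 and 7, past a ratio of 0.32 they were 20 and 12, and past 1 they were 0 and 0. For all genes, counted likewise, 3653 higher and 2839 lower became 1670 and 1272, 5556 and 4478, 7700 and 5588, and 857 and 685 under the same settings. Leaving out the richest barcode, barcode sequences in both libraries, or barcodes with 2% Sst were alternatives chosen after seeing the data. No paired analysis was possible because each genotype had 1 library. Few UMIs of the gene limited Arg2 in all hormone classes and Ass1 in Gcg and Ppy.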
